A study of Mus musculus with 2 samples.

Results

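The cells described here are hepatocytes, the liver's parenchymal cells, of the mouse, that carried transcripts of the G2 and M phases of the cell cycle in a droplet single-cell RNA library of a culture in expansion medium. They were selected on their transcripts: a cell belonged to the group when at least 5 of 19 named G2/M genes had 1 or more UMI, a UMI being 1 counted transcript molecule. Of the 1191 expansion cells with at least 500 genes and at most 25% mitochondrial UMIs, 273 met this rule and are called G2/M-positive cells. They were set against 643 comparison cells of the same library with 0 or 1 of the genes detected, and 275 cells with 2 to 4 genes lay between. The series held 2436 cells after the filter, the other 1245 from a second library in induction medium. All were primary hepatocytes from the liver of C57BL/6 mice, embedded in growth-factor reduced Matrigel, a basement membrane gel. Expansion medium contained 3 uM CHIR99021, which blocks the kinase GSK3, 100 ng/mL of the inflammatory cytokine TNFa, and the growth factors EGF at 25 ng/mL and HGF at 50 ng/mL. Induction medium contained 3 uM dexamethasone, a glucocorticoid, with EGF and HGF at the same doses and no CHIR99021 or TNFa. Both media shared 10 uM Y27632, an inhibitor of the kinase ROCK, 1 uM A83-01, an inhibitor of TGF-beta receptors, B27, N2, nicotinamide and N-acetylcysteine. Each medium was represented by 1 library. Cells of 1 library are not replicates, so no test was made and no p-value computed, and every interval is a 95% interval that covers counting error only.

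A dividing cell copies its DNA in S phase, prepares for division in G2 and separates its chromosomes in M phase. B-type cyclins with the kinase Cdk1 drive entry into mitosis, and the anaphase-promoting complex (APC), helped by Cdc20 and the enzyme Ube2c, ends it by marking those cyclins for destruction. Many G2/M genes are switched on late in the cycle through promoter elements called the cell cycle homology region (CHR) and CCAAT boxes, whereas many S phase genes are controlled through E2F sites. Most hepatocytes of an adult liver are out of the cycle, re-enter it after loss of liver tissue, and can become polyploid when they copy DNA without completing cytokinesis.

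The promoters of the genes that chose the cells are shown because the rule did not use their sequence. RefSeq's table for GRCm38.p6 held a window for 16 of the 19 genes, from 250 bases before to 50 after the gene's start. CHR letters (TTTGAA or TTCGAA, on either strand) were present in 12 of the 16 windows (75%), against 19.2% of all 32851 windows in the table. A CCAAT box (CCAAT, on either strand) was present in 14 of the 16 (87.5%), against 37.4% of all windows. Both stood in 75% of the 16 windows and in 7.52% of all windows. An E2F site (TTTCCCGC, TTTGGCGC, TTTCGCGC or TTTGCCGC, on either strand) was present in 6.25% of the 16 windows, that of Cdk1, and in 2.26% of all windows. Among G2/M genes outside the rule, 62.3% (66 of 106) held CHR letters, 10.4% an E2F site and 65.1% a CCAAT box. Among DNA replication and S phase genes, 22.6% of 53 held CHR letters, 39.6% (21 of 53) an E2F site and 60.4% a CCAAT box. Among secreted hepatocyte proteins, 20% of 30 held CHR letters, 0 of 30 an E2F site and 50% a CCAAT box. The CCAAT box was thus more frequent than in the whole table in each of these lists. A listed gene counted once, when any of its windows held the letters. The whole-table share counts single windows, and those of all genes in the table rather than of measured genes. A match is a description and does not show that a factor was bound. The 6 stretches below run from 150 bases before to 20 after the start, 5′ to 3′ on the gene's strand. Capitals mark the CHR letters and the CCAAT boxes, which read TTCAAA or TTCGAA and ATTGG where they lie on the opposite strand. They belong to cyclin B2 (Ccnb2, chr9:70421535-70421704, minus strand), the APC activator Cdc20 (chr4:118437324-118437493, minus strand), the mitotic kinase Cdk1 (chr10:69352893-69353062, minus strand), the spindle motor Kif11 (chr19:37376232-37376401, plus strand), the kinetochore protein Cenpf (chr1:189688067-189688236, minus strand) and DNA topoisomerase II alpha (Top2a, chr11:99024170-99024339, minus strand).
Ccnb2: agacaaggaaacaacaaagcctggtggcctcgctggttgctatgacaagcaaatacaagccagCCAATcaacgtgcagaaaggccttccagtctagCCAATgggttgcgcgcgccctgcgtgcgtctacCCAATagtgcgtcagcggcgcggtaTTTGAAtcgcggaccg
Cdc20: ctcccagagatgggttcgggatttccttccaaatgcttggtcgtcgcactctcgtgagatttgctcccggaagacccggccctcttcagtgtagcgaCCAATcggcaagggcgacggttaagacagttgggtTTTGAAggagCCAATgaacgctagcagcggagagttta
Cdk1: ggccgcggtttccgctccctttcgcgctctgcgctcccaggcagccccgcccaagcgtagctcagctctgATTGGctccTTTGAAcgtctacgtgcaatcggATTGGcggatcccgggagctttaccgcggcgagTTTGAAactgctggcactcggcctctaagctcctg
Kif11: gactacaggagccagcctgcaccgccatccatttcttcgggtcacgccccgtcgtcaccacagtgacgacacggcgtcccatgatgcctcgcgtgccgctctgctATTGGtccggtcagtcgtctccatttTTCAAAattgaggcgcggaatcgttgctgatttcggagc
Cenpf: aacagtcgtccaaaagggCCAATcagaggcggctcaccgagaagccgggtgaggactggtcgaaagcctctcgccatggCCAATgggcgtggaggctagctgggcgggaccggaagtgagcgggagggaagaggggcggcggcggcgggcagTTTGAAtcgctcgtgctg
Top2a: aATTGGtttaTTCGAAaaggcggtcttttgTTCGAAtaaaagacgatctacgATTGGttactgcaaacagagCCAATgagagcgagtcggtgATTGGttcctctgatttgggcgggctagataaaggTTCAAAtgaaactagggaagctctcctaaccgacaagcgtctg
In Ccnb2, CCAAT boxes begin at -87, -54 and -21 relative to the start, and a CHR at 5. The CHR nearest the start begins at -18 in Cdc20, -15 in Cdk1, -19 in Kif11, 3 in Cenpf and -23 in Top2a. The windows of Birc5, Ccnb1, Cenpe and Nusap1 held no CHR letters, which says only that these letters are not in these windows.

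The G2/M-positive cells formed a broad range. In expansion medium 348 cells had none of the 19 genes, 295 had 1, 155 had 2, 76 had 3 and 44 had 4. Each number from 5 to 17 was reached by between 15 and 25 cells, 7 cells had 18 and 1 cell had all 19. The G2/M-positive cells made up 22.9% of the expansion cells (exact Clopper-Pearson interval 20.6% to 25.4%). Just inside the limit, the 25 cells with exactly 5 genes summed to 3902 CPM of other G2/M genes and 1491 CPM of S phase genes, CPM being UMIs per 1000000 UMIs of the summed cells. Just outside it, the 44 cells with exactly 4 genes summed to 3610 and 1326 CPM, so the limit cuts a continuous range. Detection depends on depth, and the G2/M-positive cells were deeper. Their median was 26376 UMIs and 4332 genes per cell, against 21613 UMIs and 3602 genes in comparison cells, ratios of 1.22 and 1.20. When each cell was thinned to 10000 UMIs, 189 of 1156 cells met the rule (16.3%, interval 14.3% to 18.6%), 35 shallower cells being left out. Of the 271 G2/M-positive cells deep enough to thin, 69.7% still passed.

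**Figure D1:**
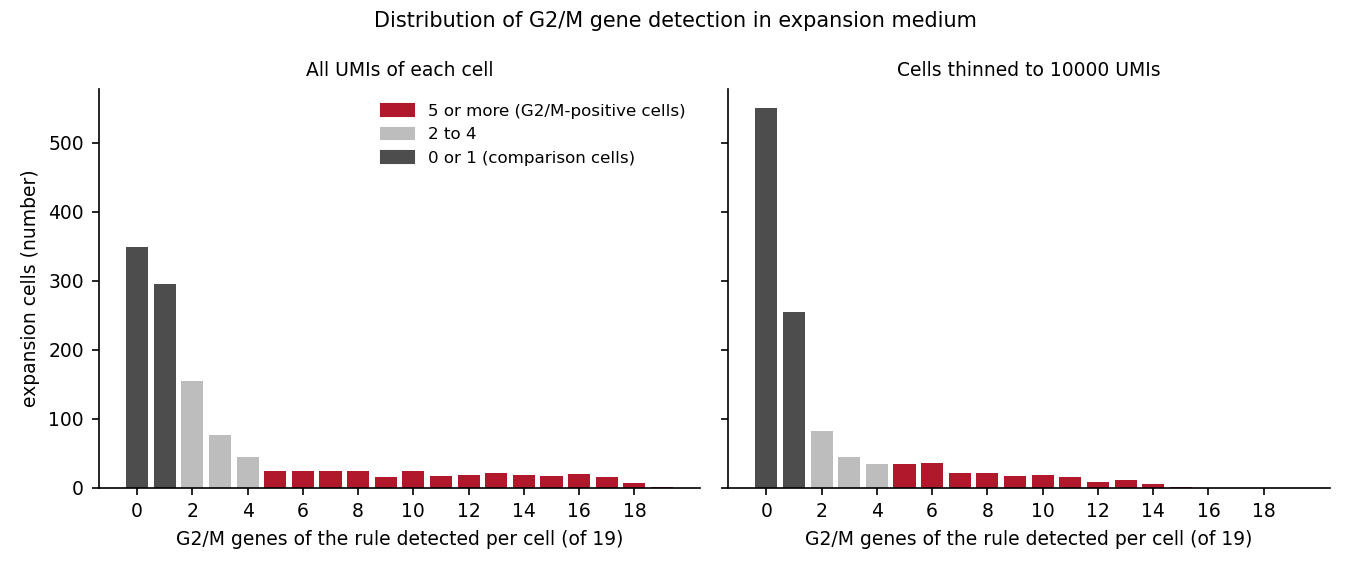
Number of expansion cells (vertical axis) by how many of the 19 G2/M genes were detected (horizontal axis), with all UMIs on the left and with each cell thinned to 10000 UMIs on the right. Red bars are cells with 5 or more genes, light grey bars cells with 2 to 4 and dark grey bars comparison cells; the red bars form a long, low tail that holds 273 cells on the left and 189 on the right.

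The kept cells summed to 29390000 UMIs in expansion (median 23184 per cell, 17 barcodes left out) and to 9201887 UMIs in induction (median 6765, 30 left out). The libraries shared 4 cell barcodes, 3 of them on G2/M-positive cells. Scrublet, a doublet caller, marked 5 of the 1191 expansion cells, 3 of them G2/M-positive and 2 comparison cells. Cells with at least 3 UMIs both of Xist and of Y-linked genes numbered 2 of 273 and 3 of 643. The median mitochondrial share was 6.06% in G2/M-positive cells and 6.40% in comparison cells.

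The 19 rule genes together gave 30.4 UMIs per G2/M-positive cell and 0.496 UMIs per comparison cell. These levels chose the cells and are given as a description. Among the drivers of mitotic entry, cyclin A2 (Ccna2) stood at 81.5 CPM in G2/M-positive cells and 0.545 CPM in comparison cells. Cyclin B1 (Ccnb1) stood at 48.2 CPM in G2/M-positive against 0.613 CPM in comparison cells, Ccnb2 at 74.3 CPM in G2/M-positive against 1.63 CPM in comparison cells and Cdk1 at 46.9 CPM in G2/M-positive against 1.70 CPM in comparison cells. Of the mitotic kinases, Plk1 stood at 19.1 CPM in G2/M-positive against 0.136 CPM in comparison cells, Aurka at 22.5 CPM in G2/M-positive against 0.272 CPM in comparison cells, Aurkb at 24.6 CPM in G2/M-positive against 0.408 CPM in comparison cells and the checkpoint kinase Bub1 at 12 CPM in G2/M-positive against 0.408 CPM in comparison cells. Genes that act as mitosis ends were present too. Ube2c stood at 157 CPM in G2/M-positive against 3.68 CPM in comparison cells and Cdc20 at 30.3 CPM in G2/M-positive against 0.681 CPM in comparison cells. Birc5, which encodes survivin of the chromosomal passenger complex, stood at 139.7 CPM in G2/M-positive against 3.13 CPM in comparison cells. Top2a, which untangles DNA, stood at 147 CPM in G2/M-positive against 4.22 CPM in comparison cells and the proliferation marker Mki67 at 82.6 CPM in G2/M-positive against 1.84 CPM in comparison cells. Among spindle and kinetochore genes, Kif11 stood at 30.3 CPM in G2/M-positive against 0.136 CPM in comparison cells, Tpx2 at 33.8 CPM in G2/M-positive against 0.476 CPM in comparison cells, Nusap1 at 32.1 CPM in G2/M-positive against 0.272 CPM in comparison cells, Hmmr at 37.7 CPM in G2/M-positive against 0.272 CPM in comparison cells, Cenpe at 23.6 CPM in G2/M-positive against 0.476 CPM in comparison cells and Cenpf at 45.4 CPM in G2/M-positive against 0.817 CPM in comparison cells. Over single cells Top2a ran from 0 through a median of 117 to 711 CPM in G2/M-positive cells, and from 0 through a median of 0 to 179.5 CPM in comparison cells. Over single cells Ccnb2 ran from 0 through a median of 45.7 to 507 CPM in G2/M-positive cells, and from 0 through a median of 0 to 138 CPM in comparison cells. A G2/M-positive cell needed only 5 of the genes, and the ranges of both genes overlapped at the low end.

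**Figure D2:**
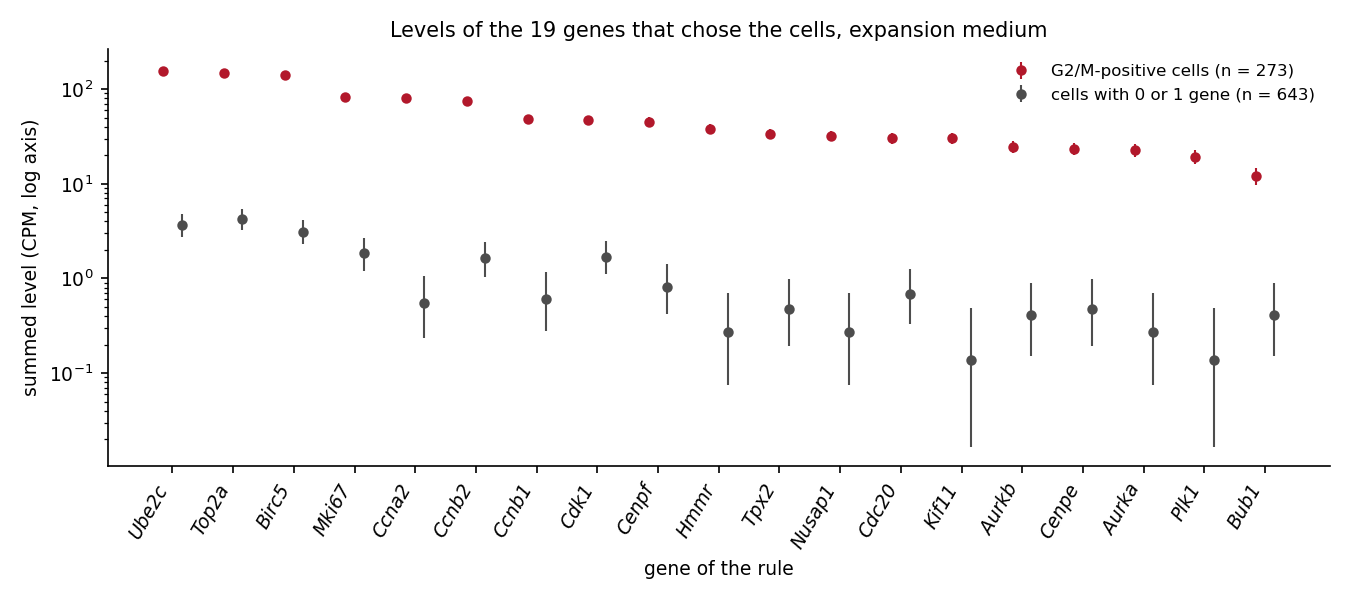
Summed level (CPM, log axis) of each of the 19 rule genes (horizontal axis) in 273 G2/M-positive cells (red, left of each pair) and 643 comparison cells (grey, right). Bars are exact Poisson 95% intervals; levels lie between 12 CPM (Bub1) and 157 CPM (Ube2c) in G2/M-positive cells and between 0.136 CPM (Plk1) and 4.22 CPM (Top2a) in comparison cells.

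The label of hepatocyte was checked against markers. The 10 hepatocyte markers summed to 31598 CPM in G2/M-positive cells and 37360 CPM in comparison cells, and each G2/M-positive cell had at least 6 of the 10 detected, with a median of 9. Defining markers of other liver cells were mostly at or near 0, and the exceptions are given below. Stellate cell and fibroblast markers gave 1 UMI over all 273 cells, with 7 of 8 at 0, among them Col1a1, Col3a1, Dcn and Lrat. Macrophage markers gave 23 UMIs, with 5 of 7 at 0, among them Ptprc and Csf1r. Of these UMIs 12 were Cd68 and 11 Lyz2, against 18 and 1 UMIs in comparison cells. Lymphocyte markers gave 3 UMIs, mesothelial markers 17 UMIs, all of Msln, and erythroid markers 17 UMIs, all of Alas2. A count of 0 over the G2/M-positive cells allows a level of up to 0.393 CPM. Endothelial markers summed to 41.5 CPM in G2/M-positive cells and 38.3 CPM in comparison cells. Of their 317 UMIs in G2/M-positive cells 314 were Egfl7, and Cdh5, Kdr, Lyve1 and Emcn were at 0. Bile duct markers summed to 114 CPM in G2/M-positive cells and 121 CPM in comparison cells, and 756 of the 873 UMIs in G2/M-positive cells were Sox9, with Krt7 and Cldn4 at 0. The rest were Cftr at 84, Epcam at 28 and Krt19 at 5 UMIs, against 167, 68 and 1 UMIs in comparison cells. At least 3 bile duct markers were found in 5 of 273 G2/M-positive cells and 15 of 643 comparison cells.

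Genes outside the rule were compared as ratios of summed CPM, G2/M-positive over comparison cells. A gene was measured when it reached 20 CPM in the higher group, and then called when it was 1.5-fold or more higher or lower. Of 4603 measured genes, 419 (9.10%) were higher and 64 (1.39%) lower. The median over 7815 genes with at least 50 UMIs in each group was shifted by 0.16 on the log2 scale, and relative to that median 278 genes were higher and 129 lower. A gene nearly silent in comparison cells is measured only through the G2/M-positive cells and then has to differ. Among genes that reached 20 CPM in comparison cells, 178 of 4032 (4.41%) were higher and 64 (1.59%) lower. With no minimum, 23.4% of 14991 genes were higher and 9.95% lower, which includes many genes of few UMIs.

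Other G2/M genes were high in the same cells. Of 133 listed genes outside the rule, 61 were measured, of which 54 were higher and 0 lower, but 37 of the 61 were measured only through the G2/M-positive cells. Of the 24 that reached 20 CPM in comparison cells 18 (75%) were higher and 0 lower, with a median log2 ratio of 1.35 against 0.10 over all genes that reached it there. With no minimum 119 of 127 detected genes were higher. Their sum was 6679 CPM in G2/M-positive cells and 2058 CPM in comparison cells. Much of this came from the list of condensins, cohesin and chromosome structure. It held 12 of the 24 genes, all 12 higher, and gave 3380 and 1100 CPM of the sums. The mitotic kinase, kinetochore, kinesin and cytokinesis lists had 3 of 4, 2 of 3, 1 of 2 and 0 of 3 higher at that minimum. Among 11 measured kinases, CDK partners and APC regulators 10 were higher, and 3 of the 4 that reached the minimum in comparison cells. Ube2s, which extends ubiquitin chains for the APC, was the most abundant at 304 CPM in G2/M-positive against 93.3 CPM in comparison cells (log2 ratio 1.70, interval 1.61 to 1.80). The CDK-binding proteins Cks1b and Cks2 stood at 129.8 CPM in G2/M-positive against 42.8 CPM in comparison cells and 133 CPM in G2/M-positive against 32.7 CPM in comparison cells. Cdca3, which promotes mitotic entry, stood at 109.7 CPM in G2/M-positive against 4.63 CPM in comparison cells (4.57, 4.21 to 4.95) and the mitotic kinase Pbk at 33.8 CPM in G2/M-positive against 0.953 CPM in comparison cells (5.15, 4.37 to 6.04). The securin gene Pttg1 had a smaller ratio, at 30.5 CPM in G2/M-positive against 15.2 CPM in comparison cells (1.01, 0.74 to 1.28). Arpp19, a mitotic inhibitor of the phosphatase PP2A, was within the limits at 299 CPM in G2/M-positive against 209.7 CPM in comparison cells.

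Of 12 measured kinetochore, centromere and checkpoint genes 11 were higher, 9 of the 12 being measured only through the G2/M-positive cells, and 2 of the 3 that reached the minimum in comparison cells were higher. The centromeric histone Cenpa, the most abundant, stood at 154 CPM in G2/M-positive cells and 16.8 CPM in comparison cells (log2 ratio 3.19, interval 2.99 to 3.40). The passenger complex subunits Cdca8 and Incenp stood at 35.8 CPM in G2/M-positive against 1.36 CPM in comparison cells and 21.2 CPM in G2/M-positive against 1.84 CPM in comparison cells, and the checkpoint gene Mad2l1 at 38.4 CPM in G2/M-positive against 4.02 CPM in comparison cells. Zwint was within the limits at 66.4 CPM in G2/M-positive against 51.1 CPM in comparison cells. Of 5 measured kinesins and spindle proteins 3 were higher, and 1 of the 2 that reached the minimum in comparison cells. The 3 were Ccdc34 at 131 CPM in G2/M-positive against 29 CPM in comparison cells, Gas2l3 at 20.6 CPM in G2/M-positive against 3.13 CPM in comparison cells and Ckap2l at 22.4 CPM in G2/M-positive against 0.272 CPM in comparison cells. Of 10 measured cytokinesis genes 7 were higher, all measured only through the G2/M-positive cells. Prc1, which bundles microtubules of the central spindle, stood at 44.5 CPM in G2/M-positive against 1.57 CPM in comparison cells (4.83, 4.22 to 5.51) and the scaffold Iqgap3 at 30.4 CPM in G2/M-positive against 0.545 CPM in comparison cells (5.80, 4.80 to 7.03). The RhoA regulators Ect2 and Racgap1 stood at 31.6 CPM in G2/M-positive against 1.36 CPM in comparison cells and 29.7 CPM in G2/M-positive against 1.09 CPM in comparison cells, and the contractile ring gene Anln at 22.3 CPM in G2/M-positive against 1.23 CPM in comparison cells. The 3 cytokinesis genes that reached the minimum in comparison cells, Rhoa, Sept7 and Birc6, were within the limits, with log2 ratios of 0.20, 0.54 and 0.24.

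All 23 measured genes of condensins, cohesin and chromosome structure were higher, and so were all 12 of them that reached the minimum in comparison cells, except that relative to the median gene Hp1bp3 was within the limits. The histone variant H2afz was the most abundant, at 1393 CPM in G2/M-positive cells and 467 CPM in comparison cells (log2 ratio 1.58, interval 1.53 to 1.62). Over single cells H2afz ran from 263 through a median of 1223 to 4175 CPM in G2/M-positive cells, and from 0 through a median of 402 to 2126 CPM in comparison cells. Its ranges overlapped, with quartiles of 877 and 1870.1 CPM in G2/M-positive cells and of 251 and 598 CPM in comparison cells. The chromatin protein Hmgb2 stood at 236 CPM in G2/M-positive against 28.7 CPM in comparison cells and the condensin subunits Smc2 and Smc4 at 63.1 CPM in G2/M-positive against 5.17 CPM in comparison cells and 85.5 CPM in G2/M-positive against 11.2 CPM in comparison cells. The cohesin subunits Rad21, Smc3 and Smc1a had log2 ratios of 1.56, 0.86 and 0.86. The largest ratios belonged to Cdca2, at 22.5 CPM in G2/M-positive against 0.204 CPM in comparison cells (6.79, 5.21 to 9.08), and the cohesin acetyltransferase Esco2, at 20.04 CPM in G2/M-positive against 0.545 CPM in comparison cells (5.20, 4.19 to 6.44). Cdca2 rests on 172 UMIs in G2/M-positive cells and 3 in comparison cells. Of 4 measured cell cycle transcription factors 2 were higher, Foxm1, an activator of G2/M genes, at 20.04 CPM in G2/M-positive against 0.817 CPM in comparison cells (4.62, 3.77 to 5.60) and E2f1, an activator of S phase genes, at 36.5 CPM in G2/M-positive against 10.8 CPM in comparison cells (1.76, 1.47 to 2.05). Both were measured only through the G2/M-positive cells. E2f4, the one factor of the list that reached the minimum in comparison cells, and Nfyb were within the limits.

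**Figure D3:**
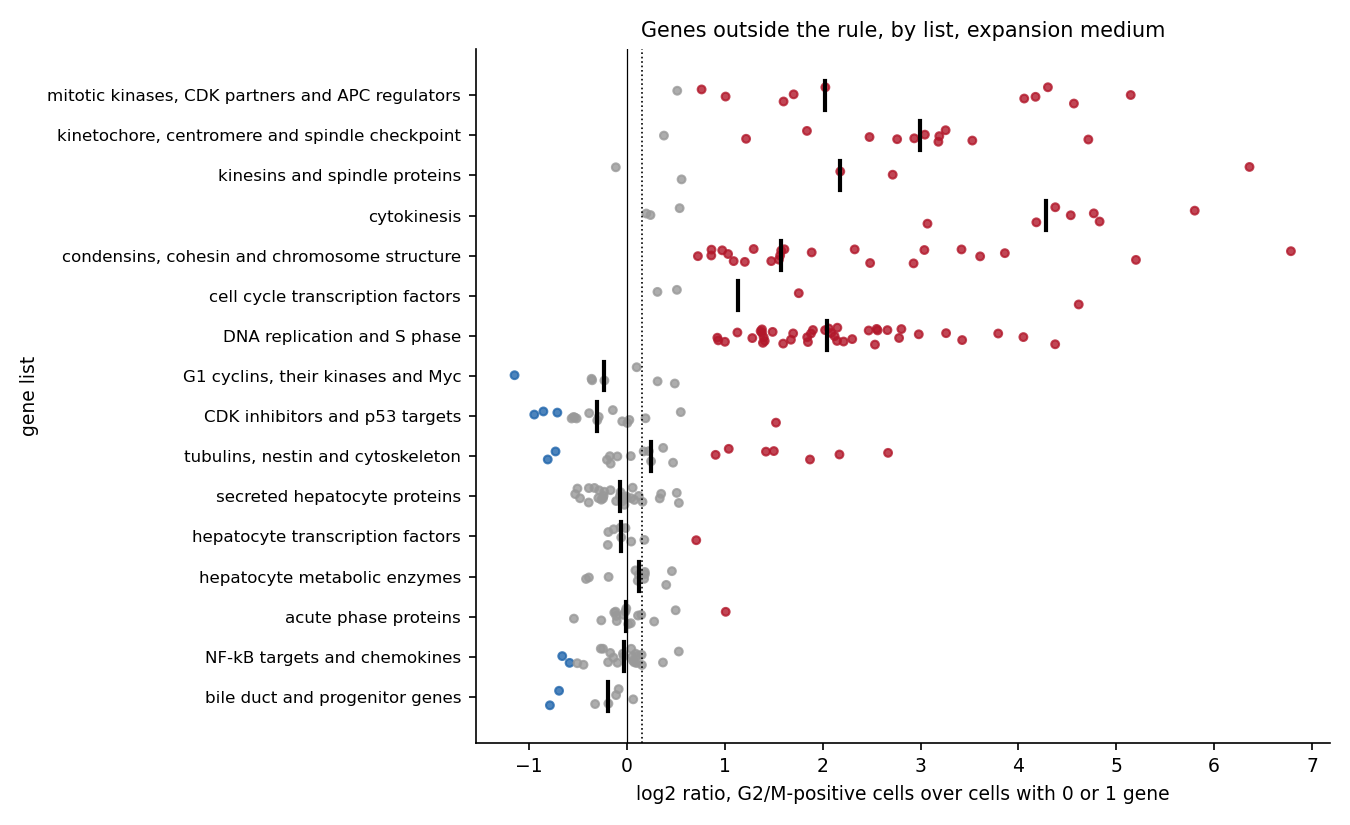
Log2 ratio of summed CPM, G2/M-positive over comparison cells (horizontal axis), for each measured gene (point) by gene list (vertical axis). Red points are at least 1.5-fold higher, blue points at least 1.5-fold lower and grey points within; black bars are list medians, and the dotted line is the median gene at 0.16. All 40 S phase points are red, but 36 of them were measured only through the G2/M-positive cells. The 3 hepatocyte lists hold 1 red point and 0 blue.

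The G2/M-positive cells also held transcripts of DNA replication. Of 70 listed S phase genes 40 were measured and all 40 were higher, but 36 of them were measured only through the G2/M-positive cells. The 4 that reached the minimum in comparison cells were higher as well, with a median log2 ratio of 1.38, and with no minimum 69 of 70 were higher. Their sum was 1896 CPM in G2/M-positive cells and 501 CPM in comparison cells. Rrm2 and Rrm1, subunits of the enzyme that makes deoxynucleotides, stood at 102 CPM in G2/M-positive against 4.90 CPM in comparison cells (log2 ratio 4.38, interval 4.03 to 4.74) and 45.7 CPM in G2/M-positive against 5.79 CPM in comparison cells. Over single cells Rrm2 ran from 0 through a median of 65.5 to 589 CPM in G2/M-positive cells, and from 0 through a median of 0 to 173 CPM in comparison cells. Thymidine kinase Tk1 stood at 44 CPM in G2/M-positive against 2.65 CPM in comparison cells (4.05, 3.57 to 4.57). The replication helicase subunits Mcm2 and Mcm5 stood at 21.7 CPM in G2/M-positive against 6.81 CPM in comparison cells and 31.3 CPM in G2/M-positive against 5.65 CPM in comparison cells, and the sliding clamp Pcna at 49.8 CPM in G2/M-positive against 11.4 CPM in comparison cells. Uhrf1, which helps copy DNA methylation, stood at 74.6 CPM in G2/M-positive against 10.7 CPM in comparison cells and cyclin E1 (Ccne1), a cyclin of S phase entry, at 30.0 CPM in G2/M-positive against 6.47 CPM in comparison cells. With cells thinned to 10000 UMIs, 89.7% of G2/M-positive cells (243 of 271, interval 85.4% to 93.0%) had 5 or more S phase genes, against 36.7% of comparison cells (226 of 616, interval 32.9% to 40.6%). Without thinning the shares were 99.6% and 80.6%, and at 10 or more genes with thinning 64.9% and 7.31%. The share that free RNA alone would give was not measured, since no cell type that should lack these transcripts was at hand, and its part in the result was not tested. The term G2/M names the transcripts counted and assigns no phase to a cell.

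Levels differed among the G2/M-positive cells. Over classes of 0 to 1, 2 to 4, 5 to 7, 8 to 12 and 13 to 19 detected rule genes, the other G2/M genes summed to 2058, 2618, 4273, 6083 and 8603 CPM. The S phase genes took another course, at 501, 785, 1652, 2161 and 1826 CPM. They were highest in the class of 8 to 12 genes and lower again at 13 to 19, where the other G2/M genes were highest. Over the same classes Rrm2 stood at 4.90, 13.9, 70.2, 123 and 103 CPM and H2afz at 467, 659.8, 1097, 1247 and 1689 CPM. The 3 classes of G2/M-positive cells held 73, 98 and 102 cells, and their median depth was 24432, 25055 and 29057.5 UMIs, so depth moved with the classes. Thinned to 10000 UMIs, the share of cells with 5 or more S phase genes was 36.7%, 50.2%, 80.6%, 90.7% and 95.1% over the 5 classes, and the median number of S phase genes was 4, 5, 10, 16 and 13. These classes rest on all UMIs. With the rule genes thinned as well, the G2/M-positive cells had a median of 12.5 S phase genes at 0 to 4 rule genes (82 cells), 15 at 5 to 7 (92 cells), 13 at 8 to 10 (57 cells) and 12.5 at 11 to 19 (40 cells), so the class with the highest median was then that of 5 to 7 genes.

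Single rule genes went with different S phase content. Among thinned G2/M-positive cells, those with a Top2a UMI had a median of 16 S phase genes and those without it 8. The medians were 17 with and 12 without Kif11, and 16 with and 12 without Cdk1 or Aurkb. Bub1 (14.5 with, 13 without) and Mki67 (14 with, 12.5 without) had smaller differences in the same order. The order was the opposite for Ccnb2 (10 with, 16 without), Cdc20 (10 with, 14 without), Cenpf (11 with, 15.5 without) and Ube2c (12 with, 16 without). It was also the opposite for Hmmr (12 with, 15 without), Ccnb1 (12 with, 14.5 without) and Birc5 (13 with, 15 without). For Aurka, Ccna2, Cenpe, Nusap1, Plk1 and Tpx2 the medians lay within 1 gene of each other. These are descriptions over cells of 1 library, by genes that chose the cells.

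**Figure D4:**
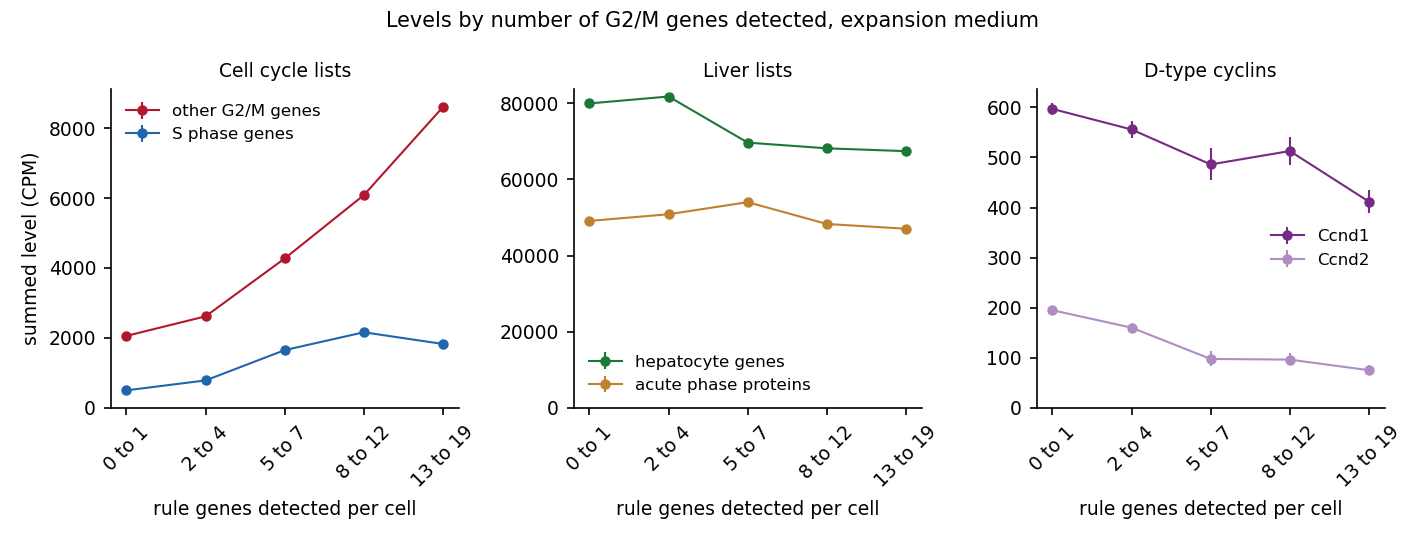
Summed level (CPM, vertical axes) of cell cycle lists (left), liver lists (middle) and D-type cyclins (right) in expansion cells grouped by how many rule genes were detected (horizontal axes). Bars are exact Poisson 95% intervals, mostly smaller than the points; other G2/M genes reach 8603 CPM at 13 to 19 genes, and S phase genes are highest at 8 to 12, with 2161 CPM.

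Taken over all cells, genes of G1, the gap before S phase, did not share this pattern. Of 7 measured G1 cyclins, kinases and Myc, 0 were higher and 1 lower. Cyclin D2 (Ccnd2) stood at 87.9 CPM in G2/M-positive cells and 195 CPM in comparison cells (log2 ratio -1.15, interval -1.27 to -1.03). Over single cells Ccnd2 ran from 0 through a median of 51 to 583 CPM in G2/M-positive cells, and from 0 through a median of 114 to 1419.9 CPM in comparison cells. The ranges overlapped. Over the 5 classes Ccnd2 stood at 195, 160.1, 97.6, 96.3 and 75.1 CPM. Cyclin D1 (Ccnd1), the most abundant of the list, was within the limits at 464 CPM in G2/M-positive against 597 CPM in comparison cells, as were the partner kinases Cdk4 at 166 CPM in G2/M-positive against 155 CPM in comparison cells and Cdk6 at 52.3 CPM in G2/M-positive against 61.3 CPM in comparison cells. Of 17 measured CDK inhibitors and p53 targets, 1 was higher and 3 lower. The higher one was Cdkn2c, which encodes the Cdk4/6 inhibitor p18, at 42.4 CPM in G2/M-positive against 14.8 CPM in comparison cells (1.52, 1.27 to 1.78), measured only through the G2/M-positive cells, and 0 of the 15 that reached the minimum in comparison cells were higher. The lower ones were the p53 target Trp53inp1 at 61.7 CPM in G2/M-positive against 119 CPM in comparison cells (-0.95, -1.10 to -0.80), Cdkn2a at 44.5 CPM in G2/M-positive against 80.5 CPM in comparison cells and the Cdk4/6 inhibitor gene Cdkn2b at 30.3 CPM in G2/M-positive against 49.6 CPM in comparison cells. The p53 targets Cdkn1a, which encodes p21, and Mdm2 were within the limits, at 85 CPM in G2/M-positive against 105 CPM in comparison cells and 47.3 CPM in G2/M-positive against 68.5 CPM in comparison cells. Relative to the median gene Mdm2, Btg2, Zmat3 and Bbc3 were lower as well. Of 11 measured genes tied to hepatocyte ploidy 9 were higher, all 9 measured only through the G2/M-positive cells. Cdk1, Birc5 and Aurkb among them are rule genes, and the other 6 are cytokinesis, E2F or S phase genes named above. Cdkn1a and Ccng1, the members of that list that reached the minimum in comparison cells, were within the limits.

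Of 19 measured tubulins and other cytoskeletal genes, 7 were higher and 2 lower, and of the 18 that reached the minimum in comparison cells 6 were higher and 2 lower. Stmn1, which destabilises microtubules, stood at 154 CPM in G2/M-positive cells and 24.2 CPM in comparison cells (log2 ratio 2.67, interval 2.50 to 2.84) and the tubulin Tubb6 at 137 CPM in G2/M-positive against 30.4 CPM in comparison cells (2.17, 2.01 to 2.33). The tubulins Tuba1b, Tubb5 and Tubb4b stood at 517 CPM in G2/M-positive against 141 CPM in comparison cells, 918 CPM in G2/M-positive against 343 CPM in comparison cells and 213 CPM in G2/M-positive against 75.4 CPM in comparison cells. Tuba1a was lower at 23.8 CPM in G2/M-positive against 41.8 CPM in comparison cells, and so was the keratin Krt18 at 322 CPM in G2/M-positive against 534 CPM in comparison cells. Tubulin genes share sequence, so the division of UMIs between them is uncertain. The most abundant gene of the list, the actin-binding thymosin Tmsb10, was within the limits at 2793 CPM in G2/M-positive against 2991 CPM in comparison cells.

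Outside the lists, 12 genes in each direction had the largest ratios among those at 50 CPM or more in the higher group. Lockd, a long noncoding RNA (chr6:134929092-134956798 of GRCm38, plus strand), stood at 71.5 CPM in G2/M-positive cells and 5.65 CPM in comparison cells (log2 ratio 3.66, interval 3.33 to 4.01). Rangap1, of the Ran cycle that serves nuclear transport and the spindle, stood at 68.9 CPM in G2/M-positive against 17.5 CPM in comparison cells (1.98, 1.76 to 2.20). Hat1, which acetylates new histones, stood at 59.7 CPM in G2/M-positive against 17.4 CPM in comparison cells, the linker histone H1fx at 50.3 CPM in G2/M-positive against 16.2 CPM in comparison cells and the chromatin protein Nucks1 at 181 CPM in G2/M-positive against 73.4 CPM in comparison cells. The RNA-binding genes Lsm3, Lsm5 and Lsm2 stood at 70.2 CPM in G2/M-positive against 19.7 CPM in comparison cells, 115 CPM in G2/M-positive against 51.6 CPM in comparison cells and 124 CPM in G2/M-positive against 56.6 CPM in comparison cells. Phgdh, the first enzyme of serine synthesis, stood at 93 CPM in G2/M-positive against 42.1 CPM in comparison cells. Arl6ip1, Cmc2 and Pih1d1 had log2 ratios of 1.39, 1.25 and 1.12. Of these higher genes only Arl6ip1, Nucks1, Lsm2 and Lsm5 also reached 50 CPM in comparison cells. The others passed that level only through the G2/M-positive cells, and Lockd, Rangap1, Hat1, H1fx and Lsm3 were under 20 CPM in comparison cells. The lower genes had smaller ratios, between -1.18 and -0.65. Ly6d, a surface protein, stood at 60.4 CPM in G2/M-positive against 137 CPM in comparison cells (-1.18, -1.33 to -1.04) and Cyp2c29, a cytochrome P450 with close relatives, at 54.3 CPM in G2/M-positive against 109 CPM in comparison cells. Sprr1a, a cornified envelope protein, stood at 44.5 CPM in G2/M-positive against 88.2 CPM in comparison cells and was detected in 15% of G2/M-positive and 21.3% of comparison cells. Igfbp3, which binds insulin-like growth factors, stood at 32.6 CPM in G2/M-positive against 60.4 CPM in comparison cells, the metalloprotease inhibitor Timp3 at 201 CPM in G2/M-positive against 324 CPM in comparison cells and Tm4sf4 at 132 CPM in G2/M-positive against 237 CPM in comparison cells. Dcxr, Ypel3, Zfos1, Sh3bgrl3, Sorbs2 and Cited2 complete the lower genes. Sprr1a, Igfbp3, Dcxr, Ypel3, Sorbs2 and Cited2 reached 50 CPM only in the comparison cells.

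The measured genes of the 3 hepatocyte lists lay close in G2/M-positive and comparison cells. Of 90 listed genes of secreted proteins, transcription factors and metabolic enzymes 50 were measured, with 11 of the 36 listed enzymes among them. Of the 50, 1 was higher and 0 lower, with a median log2 ratio of -0.04. Relative to the median gene 0 were higher and 3, Serpina1b, Serpina1e and Ahsg, were lower. The lists summed to 68222 CPM in G2/M-positive cells and 79949.8 CPM in comparison cells, a ratio of 0.853. Per cell this was 1908 UMIs in G2/M-positive cells and 1827 UMIs in comparison cells, a ratio of 1.04, against 1.22 for all genes. Over the 5 classes of rule genes the sum was 79949.8, 81769, 69654, 68160.0 and 67416 CPM. Transferrin (Trf), the most abundant, stood at 13809.5 CPM in G2/M-positive against 14918 CPM in comparison cells. Over single cells Trf ran from 1344 through a median of 13886 to 43529 CPM in G2/M-positive cells, and from 1080.4 through a median of 14354 to 47506 CPM in comparison cells. These ranges overlapped almost throughout. Albumin (Alb) was within the limits at 1503 CPM in G2/M-positive against 1775 CPM in comparison cells (log2 ratio -0.24, interval -0.27 to -0.21), as were the antiprotease Serpina1b at 8897 CPM in G2/M-positive against 12411 CPM in comparison cells and fetuin A (Ahsg) at 3175 CPM in G2/M-positive against 4511 CPM in comparison cells. Serpina1 genes are near-identical copies, so their separate values are uncertain. The hepatocyte regulators Hnf4a and Cebpa stood at 91.1 CPM in G2/M-positive against 92.2 CPM in comparison cells and 31.6 CPM in G2/M-positive against 32.9 CPM in comparison cells. The gene called higher was the regulator Foxa2, at 26.5 CPM in G2/M-positive against 16.2 CPM in comparison cells (0.71, 0.43 to 0.98), measured only through the G2/M-positive cells. Of the 49 genes that reached the minimum in comparison cells 0 were higher and 0 lower.

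Of 16 measured acute phase proteins, made by the liver during inflammation, 1 was higher and 0 lower. They summed to 49194 CPM in G2/M-positive cells and 49091 CPM in comparison cells. Saa3, the most abundant, stood at 18057 CPM in G2/M-positive against 16708 CPM in comparison cells and haptoglobin (Hp) at 14997 CPM in G2/M-positive against 15161 CPM in comparison cells, and the Saa genes share sequence. Saa3 differed more in its single-cell medians, 11375 CPM in G2/M-positive cells and 7057 CPM in comparison cells. Its single-cell ranges overlapped, from 572 to 79339 CPM in G2/M-positive cells and from 607 to 111280 CPM in comparison cells. The higher gene was Hamp, which encodes the iron hormone hepcidin, at 24 CPM in G2/M-positive against 11.9 CPM in comparison cells (log2 ratio 1.01, interval 0.70 to 1.32), measured only through the G2/M-positive cells. Of the 15 acute phase genes that reached the minimum in comparison cells 0 were higher and 0 lower. Hamp was detected in 12.1% of G2/M-positive and 7.15% of comparison cells, and its log2 ratio was 1.78 in Xist cells and -0.35 in Y cells, classes described below. Of 23 measured NF-kB targets and chemokines 0 were higher and 2 lower. The monocyte attractant Ccl2 stood at 485 CPM in G2/M-positive against 768 CPM in comparison cells (-0.66, -0.72 to -0.61) and the adhesion molecule Vcam1 at 123 CPM in G2/M-positive against 185 CPM in comparison cells (-0.59, -0.70 to -0.48). Over the 5 classes Ccl2 stood at 768, 988, 587, 448 and 455 CPM, with its highest level in cells with 2 to 4 rule genes. The chemokine Ccl20, the most abundant, was within the limits at 1056 CPM in G2/M-positive against 1272 CPM in comparison cells. Of 7 measured bile duct and progenitor genes 0 were higher and 2 lower. Osteopontin (Spp1) stood at 932 CPM in G2/M-positive against 1508 CPM in comparison cells (-0.69, -0.73 to -0.66) and the transcription factor Sox4 at 149.8 CPM in G2/M-positive against 259 CPM in comparison cells (-0.79, -0.88 to -0.69). Over single cells Spp1 ran from 0 through a median of 663 to 5922 CPM in G2/M-positive cells, and from 0 through a median of 805 to 29278 CPM in comparison cells. Sox9 and clusterin (Clu) were within the limits, at 99 CPM in G2/M-positive against 105 CPM in comparison cells and 6027 CPM in G2/M-positive against 7556 CPM in comparison cells.

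Of 20 measured genes of fatty acid and cholesterol synthesis 3 were higher and 0 lower, with a median log2 ratio of 0.46. Among them were Fdps and Idi1 of the isoprenoid branch, at 207 CPM in G2/M-positive against 124 CPM in comparison cells and 139 CPM in G2/M-positive against 85.4 CPM in comparison cells. Relative to the median gene all 3 were within the limits. The desaturase Scd2, the most abundant, was within the limits at 969 CPM in G2/M-positive against 743 CPM in comparison cells. All 8 measured glycolysis genes and all 81 measured cytosolic ribosomal protein genes were within the limits, the ribosomal ones summing to 314618 CPM in G2/M-positive cells and 335024 CPM in comparison cells. Of 7 measured genes of the integrated stress response and of protein folding stress 1 was lower, the chaperone gene Dnajb9, at 19.4 CPM in G2/M-positive against 29.7 CPM in comparison cells. None of the 12 measured growth factor receptor and early response genes was called, and the receptors for EGF (Egfr) and HGF (Met) stood at 47.3 CPM in G2/M-positive against 58.9 CPM in comparison cells and 22.5 CPM in G2/M-positive against 17.2 CPM in comparison cells. The 3 measured beta-catenin targets, the 3 measured YAP and TEAD targets and the 6 measured quiescence genes were also within the limits. Relative to the median gene, Gas6 of the quiescence list, the acute phase gene Saa4, the chemokines Cxcl3 and Cxcl5 and the YAP target Cyr61 were lower.

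Cells from female and male animals were both present among the G2/M-positive cells. Of 273 cells, 95 had at least 3 Xist UMIs and no more than 1 Y-linked UMI (Xist cells) and 93 had the reverse (Y cells). Another 2 had at least 3 UMIs of both kinds, and 83 met none of these definitions. The rule was met by 27.0% of Xist cells (95 of 352, interval 22.4% to 31.9%) and 21.8% of Y cells (93 of 427, interval 18.0% to 26.0%), and the difference was not tested. Within Xist cells 12.2% of 4849 measured genes were higher and 2.43% lower, and within Y cells 12.2% of 4573 were higher and 2.32% lower. Of the 419 higher genes 265 were higher in both classes, and of the 64 lower genes 36 were lower in both. All 42 measured S phase genes were higher in Xist cells and 32 of 33 in Y cells. The same minimum applied within each class. Over all cells, 36 of the 40 measured S phase genes reached it only through the G2/M-positive cells, and within the classes such genes were not counted. Both classes are parts of the comparison over all cells. The log2 ratio of Ccnd2 was -2.06 in Xist cells and -1.02 in Y cells, that of Spp1 -1.09 in Xist cells and -0.75 in Y cells and that of Sox4 -0.79 in Xist cells and -0.83 in Y cells. Some lower genes had smaller ratios in Y cells. The ratio of Ly6d was -1.83 in Xist cells and -0.64 in Y cells, that of Cyp2c29 -1.72 in Xist cells and -0.19 in Y cells and that of Sprr1a -2.34 in Xist cells and -0.28 in Y cells. Other genes had smaller ratios in Xist cells. Timp3 had -0.49 in Xist cells and -0.88 in Y cells, Zfos1 -0.55 and -1.11, and the higher gene Fdps 0.37 and 0.99. Ccnd1, within the limits over all cells, had -0.22 in Xist cells and was lower in Y cells at -0.69. Cdc25a of the same G1 list, within the limits over all cells at 0.49, was higher in Xist cells at 0.93 and not measured in Y cells. Of that list 2 of 7 measured genes were higher and 1 lower in Xist cells, against 0 higher and 2 lower of 6 in Y cells.

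The same rule was applied to the induction library. Thinned to 5000 UMIs, 9.15% of expansion cells (109 of 1191, interval 7.57% to 10.9%) and 6.51% of induction cells (62 of 952, interval 5.03% to 8.27%) met the rule, with 293 induction cells left out as too shallow. Without thinning, 84 of 1245 induction cells (6.75%) met it and were set against 1125 induction cells with 0 or 1 gene. In that comparison 20.4% of 5516 measured genes were higher and 10.4% lower. Of 72 measured genes of the 3 hepatocyte lists 1 was higher and 47 lower (median log2 ratio -0.77), beside 1 higher and 0 lower of 50 in expansion. The lists summed to 83914 CPM in the 84 induction cells and 125389 CPM in the 1125. The log2 ratio of Alb was -0.24 in expansion and -0.94 in induction, where it stood at 10753 CPM in cells meeting the rule against 20659 CPM in cells with 0 or 1 gene. The ratio of transthyretin (Ttr) was -0.02 in expansion and -0.76 in induction. Of 18 measured acute phase genes 16 were lower in induction, beside 0 of 16 in expansion, and Hp had ratios of -0.02 in expansion and -0.86 in induction. Within Xist cells of the induction library 48 of 72 hepatocyte genes were lower, and within its Y cells, of which 8 met the rule, 34 of 71. All 41 measured S phase genes and 81 of 86 G2/M genes outside the rule were higher in induction. A gene nearly silent in the 1125 cells is measured only through the cells meeting the rule and then has to differ. Rrm2 and Tk1 stood at 6.25 and 2.12 CPM in the 1125 cells. How many of the 41 and 86 genes reached 20 CPM there was not counted. Medium, library and depth differ together and cannot be told apart, and the difference between the media was not tested.

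**Figure D5:**
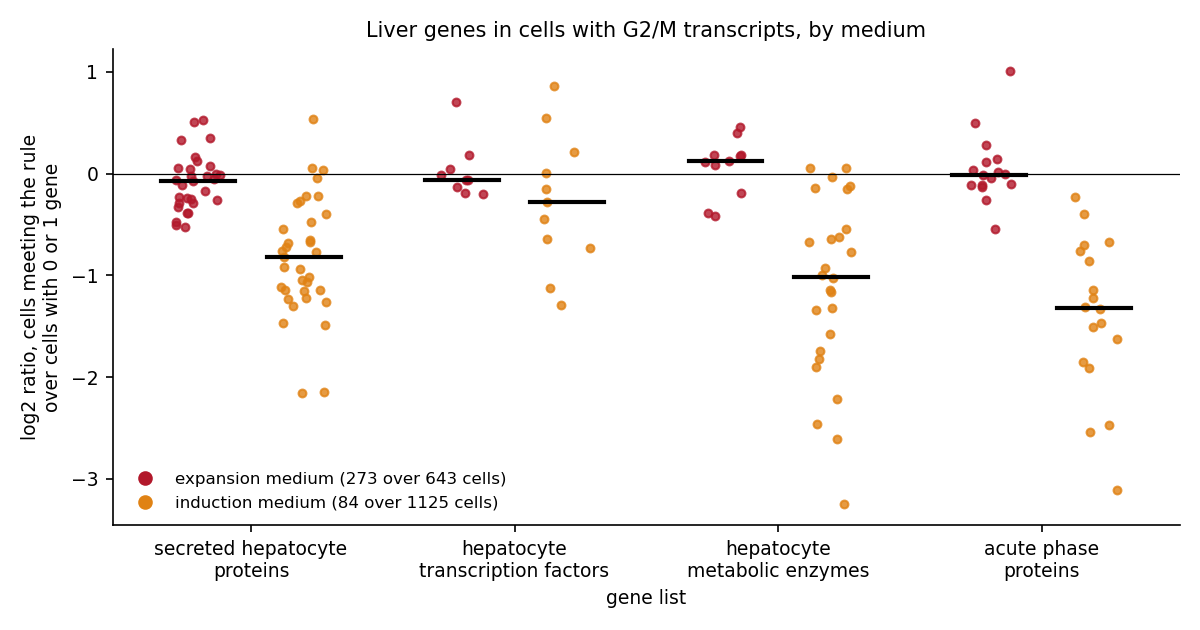
Log2 ratio of summed CPM, cells meeting the rule over cells with 0 or 1 gene of the same library (vertical axis), for measured genes of 4 liver lists (horizontal axis). Red points, left of each pair, are the expansion library and orange points the induction library, and black bars are medians; expansion medians lie between -0.07 and 0.12 and induction medians between -1.32 and -0.28.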

How the data were processed

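Single-cell RNA was profiled with the 10x Chromium system in 2 libraries, 1 per medium. The deposited matrices hold raw UMI counts per gene and cell, made by the authors with Cell Ranger 2.1.1 on mm10, per the submitters' processing notes. Which annotation release was used, and how cells were called, is not given in the sources used here. Of 28692 gene IDs, 28339 matched GENCODE M21, from which coordinates were taken.

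Cells with at least 500 genes and at most 25% mitochondrial UMIs were kept. Within each group of cells the counts were added up and scaled to a total of 1000000 (CPM). Ratios of CPM carry exact binomial 95% intervals, levels exact Poisson and shares exact Clopper-Pearson intervals, all for counting error only. A gene was called at 1.5-fold with at least 20 CPM in the higher group. With 1 library per group and cells that are not replicates, no p-value was computed. A count of 0 was given the limit of 3 counts. Shares that depend on depth were recomputed with cells thinned without replacement to 10000 UMIs within the expansion library and 5000 across media. Doublets were marked with Scrublet and by joint Xist and Y-linked UMIs, and kept. Xist and Y cells were defined by at least 3 UMIs of one kind and no more than 1 of the other.

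The cells, gene lists and comparisons were chosen with earlier results of these data known. Named genes were the 19 rule genes, the most abundant gene and the 2 largest ratios of each list, and the 12 largest ratios in each direction outside the lists at 50 CPM or more, leaving out unnamed gene models and mitochondrial and ribosomal protein genes; other genes were named to describe a list after their values were seen. Some genes of the lists are not reported here by name. Promoter windows came from RefSeq. Alternatives changed the filter, rule, comparison cells, scaling, fold and minimum. Python 3.11.15, numpy 2.4.6, scipy 1.17.1, pandas 2.3.3, scanpy 1.11.5 and matplotlib 3.10.9 were used, and the scripts were tested on simulated data.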

Additional observations from a re-analysis of the deposited data

Results flagged for a closer look

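Ccl2 and Vcam1 moved in opposite directions in the 2 media, and the difference was not tested. The log2 ratio of Ccl2, cells meeting the rule over cells with 0 or 1 gene, was -0.66 in expansion and 1.20 in induction, where it stood at 682 CPM in cells meeting the rule against 298 CPM in cells with 0 or 1 gene. That of Vcam1 was -0.59 in expansion and 0.82 in induction, where it stood at 70.5 CPM in cells meeting the rule against 39.9 CPM in cells with 0 or 1 gene.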

How the results depend on the processing

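Of the summary values recomputed under each alternative, 144 stayed within the limits set for a match and 61 moved; of the other values 1874 stayed, 316 moved and 2 reversed. The values as reported were 419 genes higher and 64 lower, 54 G2/M genes outside the rule and 40 S phase genes higher, 1 hepatocyte gene higher and 0 lower, a share of 22.9%, and median ratios of 1.22 for UMIs and 1.20 for genes. The cause of each move was not tested. With cells thinned to 10000 UMIs before the rule, 714 genes and a share of 16.3% resulted, and 1 hepatocyte gene was lower. Within the interquartile range of the G2/M-positive cells' UMIs, 663 were higher and 98 lower, with 3 hepatocyte genes higher and 4 lower, and a share of 29.1%. A rule of at least 4 genes gave a share of 26.6%, of 7 genes 18.8%, and of 10 genes 13.5%, with 2 hepatocyte genes higher and ratios of 1.29 for UMIs and 1.25 for genes. Against all other expansion cells the ratio of genes was 1.17, and against cells with 0 detected 2 hepatocyte genes were higher. Without mitochondrial and ribosomal protein genes in the total, 84 G2/M genes were higher and 116 genes lower. That scaling raises the CPM of every other gene while the minimum stays the same, so more genes can be measured. Relative to the median gene, 278 were higher and 129 lower, with 0 hepatocyte genes higher and 3 lower. In Xist cells 118 genes were lower, 2 hepatocyte genes higher and 1 lower, with a share of 27.0% and a UMI ratio of 1.15. In Y cells 106 were lower, 6 hepatocyte genes higher and 1 lower, with ratios of 1.12 for UMIs and 1.14 for genes, and Hamp reversed to -0.35. At 2-fold, 178 were higher and 11 lower, with 0 hepatocyte genes higher. At 5 CPM, 1099 were higher and 196 lower, with 115 G2/M and 63 S phase genes higher. At 100 CPM, 70 were higher and 16 lower, with 13 G2/M genes, 1 S phase gene and 0 hepatocyte genes higher, and the ploidy list was left, outside the rule genes, with Cdkn1a and Ccng1 (median -0.35), the other genes falling under the minimum. The share across media, 9.15% in expansion and 6.51% in induction, became 1.34% and 0.975% at 2000 UMIs, 22.9% in expansion without thinning, 22.9% and 10.1% at 2 genes, and 16.0% and 8.40% at 3 genes. The share with S phase genes, 89.7% in G2/M-positive and 36.7% in comparison cells, became 72.2% and 12.1% at 5000 UMIs, 99.6% and 80.6% without thinning, 97.0% and 72.9% at 3 genes, and 64.9% and 7.31% at 10. The share of all promoters with CHR letters, 19.2%, became 17.9% with TTTGAA alone and 8.59% from 100 bases before to 50 after the start. Hepatocyte genes lower in induction, 47 of 72, became 50 of 72 relative to the median gene, 47 of 72 with thinning to 5000 UMIs, 48 of 72 in Xist cells, 34 of 71 in Y cells and 46 of 76 without mitochondrial and ribosomal protein genes, alternatives chosen after seeing the data. Depth limits genes of few UMIs and every count of detected genes. No paired analysis was possible because each medium had 1 library.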
